A study of Mus musculus with 23 samples.

Results

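Chromosome 11 carries the paired genes Stat5a and Stat5b, which were flanked by loxP sites in every mouse of the study and deleted from hepatocytes of the knockout mice. The regions described here are all those that the authors' deposited table places on chromosome 11: 263 of 3885 regions of 100 bp, chosen by their chromosome alone. Positions are mm9 coordinates as deposited. Distance was measured from the interval 100600000 to 100800000 that holds both genes.

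STAT5a and STAT5b are closely related transcription factors that are phosphorylated by the kinase JAK2 when growth hormone binds its receptor, and that then enter the nucleus and bind DNA as dimers. In mouse liver the plasma pattern of growth hormone, pulsatile in males and nearly continuous in females, sets much of the difference in gene expression between the sexes through these factors. Chromosome 11 also carries Stat3, the neighbour of Stat5a, and Socs3, a feedback inhibitor of cytokine receptor signalling. Elsewhere on it are Gh, the gene of growth hormone itself, Igfbp1, a binding protein of insulin-like growth factors, and Fasn, the fatty acid synthase.

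The assay was reduced representation bisulfite sequencing (RRBS). DNA is cut by MspI at CCGG, short fragments are kept, and bisulfite converts unmethylated cytosines before sequencing. Each of the 23 libraries came from the liver of a single mouse: 6 males and 5 females with the floxed locus and no deletion (controls), and 6 males and 6 females in which Cre driven by the albumin promoter had removed both genes (STAT5ab-KO, written KO). All mice were 8 to 12 weeks old, labelled as of mixed C57BL/6 x 129J background, and the Cre line was FVB/N. The albumin promoter is active in hepatocytes, so the other cells of the liver keep both genes. The floxed locus was common to all 4 groups, and only the KO groups carried Cre. Genotypes along the chromosome were not analysed here. Library titles carry codes that KO and control mice of the same sex never share. Males and females share them only in part, among controls and among KO mice, and control females share a code with KO males. The labels do not say whether these codes mark batches, so their part in any difference was not tested.

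The table gives 4 differences in percentage points of methylation: control males minus control females, KO males minus KO females, KO males minus control males, and KO females minus control females. The authors listed a region at a difference of more than 15 points and a q-value under 0.05, and a comparison in which a region was not listed holds 0. No levels, coverage or values per animal were at hand, so depth is unknown, no error between animals can be attached to a difference, and no test over animals was made. Every percentage below is a description of the authors' calls. The table holds only regions listed in 1 or more of the comparisons. The share of regions that a comparison listed, on the chromosome or near Stat5, thus also depends on how many the other comparisons listed. It is not a rate among measured regions. The number of regions measured along the chromosome is unknown as well, so crowding of listed regions cannot be told apart from crowding of MspI fragments.

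The promoters of the deleted genes are shown because RRBS reads start at MspI sites and each of the windows shown holds such sites. Both windows are from RefSeq (GRCm38.p6, chromosome 11), reach from 250 bases before to 50 after a transcription start, and are the more CpG-rich of the 2 windows listed for each gene. CCGG is in capitals, and since it reads the same on both strands a single search covers both.

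Stat5b, minus strand: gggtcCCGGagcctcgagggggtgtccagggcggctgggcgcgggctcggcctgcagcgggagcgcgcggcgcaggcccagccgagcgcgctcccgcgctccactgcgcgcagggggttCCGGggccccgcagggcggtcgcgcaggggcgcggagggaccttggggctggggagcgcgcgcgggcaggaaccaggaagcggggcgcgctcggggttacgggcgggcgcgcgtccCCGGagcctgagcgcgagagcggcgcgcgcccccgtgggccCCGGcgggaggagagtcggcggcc

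Stat5a, plus strand: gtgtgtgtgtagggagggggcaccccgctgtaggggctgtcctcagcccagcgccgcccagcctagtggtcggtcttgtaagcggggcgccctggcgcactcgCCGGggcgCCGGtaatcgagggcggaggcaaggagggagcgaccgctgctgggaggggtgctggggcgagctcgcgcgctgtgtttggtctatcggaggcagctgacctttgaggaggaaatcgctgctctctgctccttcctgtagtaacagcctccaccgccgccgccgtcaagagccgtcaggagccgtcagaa

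The Stat5b window held 4 CCGG sites and 50 CpGs, and the Stat5a window held 2 sites and 27 CpGs. Of the windows not shown, that of Stat5b held 0 sites and 7 CpGs, and that of Stat5a 2 sites and 5 CpGs. At least 1 CCGG was present in 52.8% of all 32851 promoter windows that RefSeq gives, as did 60.5% of those on chromosome 11. No region inside the interval of the 2 genes was listed in any comparison. A region that was not covered and one with a small difference look alike in the table, so this is not a measurement of unchanged methylation at Stat5a and Stat5b. Both genes were also removed from KO hepatocytes, so in KO livers DNA of the genes would come from cells that keep them. In the order of the RefSeq genes, Stat5b and Stat5a lie side by side between Ghdc and Stat3, followed by Cavin1, a structural protein of caveolae. The table of regions is in another build and names no genes, so regions are given by position only, and their own sequences are not shown.

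Control males and females differed at more regions of chromosome 11 than of any other of the 19 autosomes. The list held 139 of the 263 regions (52.9%), where 38.4% of all regions in the table were listed for this comparison. Control males were higher at 72 and lower at 67, so that 51.8% were higher, beside 47.3% in the whole table. The median difference was 20.9 points among the higher and -20.9 points among the lower regions. The KO sex comparison had a shorter list of 44 regions (16.7%, beside 18% in the whole table). KO males were higher at 20 of them (45.5%, beside 50.4%), with medians of 18.3 and -20.4 points. The difference in length of these lists was not tested, because group sizes differ and coverage is unknown.

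Loss of STAT5 in males went with higher methylation more often than lower on this chromosome, as in the whole table. Chromosome 11 ranked 18 among the 19 chromosomes in that share, counted from the highest, and the rank was not tested. KO males differed from control males at 121 regions (46.0%, beside 55.4% of the whole table). They were higher at 74 and lower at 47, a share of 61.2%, beside 68.1%. In females 97 regions were listed (36.9%, beside 28.1%), with higher methylation in KO females at 58 and lower at 39, a share of 59.8% beside 60.9%. Gains had medians of 19.9 points (males) and 20.9 points (females), and losses of -19.1 and -22.4 points. Of these male differences 28.1% were at least 25 points, and of the female ones 39.2%, beside 25.8% and 30.8% in the whole table. Chromosome 11 thus supplied 5.62% of the male KO list, 8.88% of the female KO list, 9.31% of the control sex list and 6.29% of the KO sex list.

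**Figure D1:**
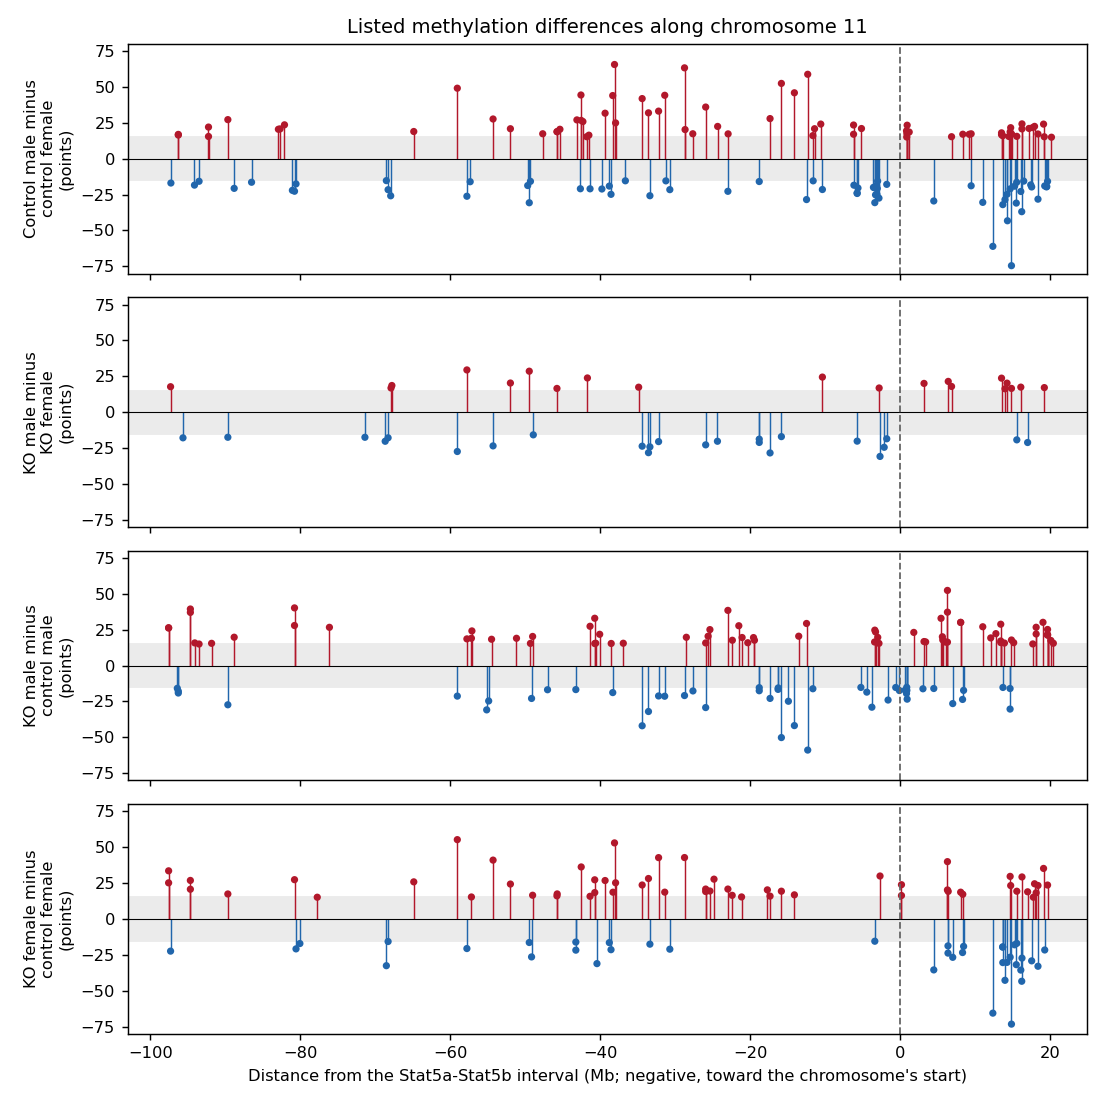
Listed differences in methylation (y axis, percentage points) against distance from the Stat5a-Stat5b interval (x axis, Mb, dashed line at 0), 1 panel per comparison and 1 stem per region; red is higher and blue lower in the first-named group, and the grey band marks the 15 points under which no region was listed. In the control sex panel the tallest stem above 0 lies 38.1 Mb before the interval and the deepest below 0 lies 14.9 Mb after it, while for KO males against control males the tallest lies 6.33 Mb after it.

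The largest control sex differences lay more than 12 Mb from Stat5. Among the regions of the control sex comparison, control males were highest above control females at 62520801 to 62520901, by 65.7 points in the authors' deposited table. KO females exceeded control females there by 53.1 points, and neither comparison with KO males was listed. In the authors' deposited table the same difference was 63.4 points at 71858601 to 71858701, and 58.9 points at 88289701 to 88289801. The next 2 were 84777601 to 84777701 with 52.5 points and 41553601 to 41553701 with 49.2 points, again from the authors' deposited table. All 5 lay before the Stat5 interval, 12.3 to 59.0 Mb from it.

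The 5 largest differences in the other direction, with control females above control males, all lay after the interval, 12.4 to 16.2 Mb from it. At 115664901 to 115665001 the control sex difference was -74.5 points and the female KO difference -73.3 points in the authors' deposited table. It was followed in the authors' deposited table by 113182801 to 113182901 with -61.1 and -65.6 points in the same 2 comparisons. These comparisons share the control females, so their values are not independent of each other. The remaining 3 were 115130701 to 115130801 with -43.2 points, 117034801 to 117034901 with -36.9 points and 114509701 to 114509801 with -32.0 points, in the control sex column of the authors' deposited table.

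In males, the largest gain of methylation in KO mice was at 107126701 to 107126801, 6.33 Mb after the interval, with 52.4 points in the authors' deposited table. It was the last of 3 abutting regions, whose values of 16.4, 37.3 and 52.4 points in the authors' deposited table grew along the sequence. KO females exceeded control females at the last 2 of these, by 20.3 and 40.0 points in the authors' deposited table. Neither sex comparison was listed at any of the 3. Gains of 40.2 points at 19840101 to 19840201, 39.4 points at 5950101 to 5950201 and 38.5 points at 77644101 to 77644201 came next in the authors' deposited table.

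The largest losses in KO males were -58.9 points at 88289701 to 88289801 and -50.2 points at 84777601 to 84777701 in the authors' deposited table. At the first of these, the control sex difference was as large with the opposite sign (58.9 points) and no comparison with KO females was listed. Losses of -41.9 points at 66208101 to 66208201, -41.8 points at 86511601 to 86511701 and -32.0 points at 67050901 to 67051001 followed in the authors' deposited table. Each of these 5 regions was higher in control males than in control females. Both comparisons use the control males.

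In females, KO mice were above controls by 55.3 points at 41553601 to 41553701, the largest gain in the authors' deposited table. The gains at 62520801 (53.1 points), 71858601 (42.8 points), 68400201 (42.8 points) and 46322401 (41.1 points) followed in the authors' deposited table. Behind the 2 large losses at 115664901 and 113182801, the authors' deposited table gives -43.4 points at 117034801, -42.7 points at 114800801 and -35.6 points at 116911801. All 5 of these gains lay before the interval and all 5 losses after it. Control males were also above control females at each of these gains and below them at each of these losses. Both comparisons use the control females.

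Between KO males and KO females the largest differences were smaller, in a shorter list. The median size of these differences, 20.2 points, lay among the 19.7 to 21.7 points of the other comparisons on the chromosome. The highest were 29.4 points at 42833701, 28.6 points at 51150201, 24.5 points at 90247201, 23.9 points at 58906501 and 23.7 points at 114340701 in the authors' deposited table. The lowest were -30.8 points at 97934201, -28.4 points at 83266001, -28.2 points at 67050901, -27.4 points at 41553601 and -24.5 points at 98488601, from the authors' deposited table. Of the last 5, those at 97934201 and 98488601 lay within 5 Mb of the interval.

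Direction also differed between the sides of the interval. Of the 263 regions 163 lay before it and 100 after it. Before the interval the female KO comparison had 40 gains and 16 losses, and after it 18 gains and 23 losses. For KO males minus KO females the counts were 11 higher and 22 lower before the interval, and 9 higher and 2 lower after it. KO males were above control males at 43 and below at 34 regions before it, and above at 31 and below at 13 after it. The higher shares before and after were 71.4% and 43.9% for KO females against controls, beside 60.9% in the whole table. For KO males against KO females they were 33.3% and 81.8%, beside 50.4%. For KO males against controls they were 55.8% and 70.5%, beside 68.1%. Whether the sides differ was not tested. Over the whole of each side the control sex comparison was nearly even. Control males were higher at 46 and lower at 44 regions before the interval, and higher at 26 and lower at 23 after it. Those shares were 51.1% and 53.1%, beside 47.3% in the whole table. Within 10 Mb, control males were higher at 3 and lower at 14 before the interval, and higher at 9 and lower at 2 after it.

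Each side held long stretches of a single sign. Between 71858601 and 86511701 all 12 listed differences between KO and control females were gains, of 15.4 to 42.8 points, and between 109281401 and 115490101 all 8 were losses, of 19.1 to 65.6 points. The run of 12 was the longest for this comparison on any autosome, and 2 other chromosomes had a run as long. In KO males minus KO females, all 10 listed regions between 66208101 and 84777701 were negative, and 5 chromosomes had a longer run. For KO males minus control males the longest run was 12 gains from 115664901 to 121250401, and 10 chromosomes had a longer one. A run was counted over listed regions only, so unlisted ground inside it has no sign.

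**Figure D2:**
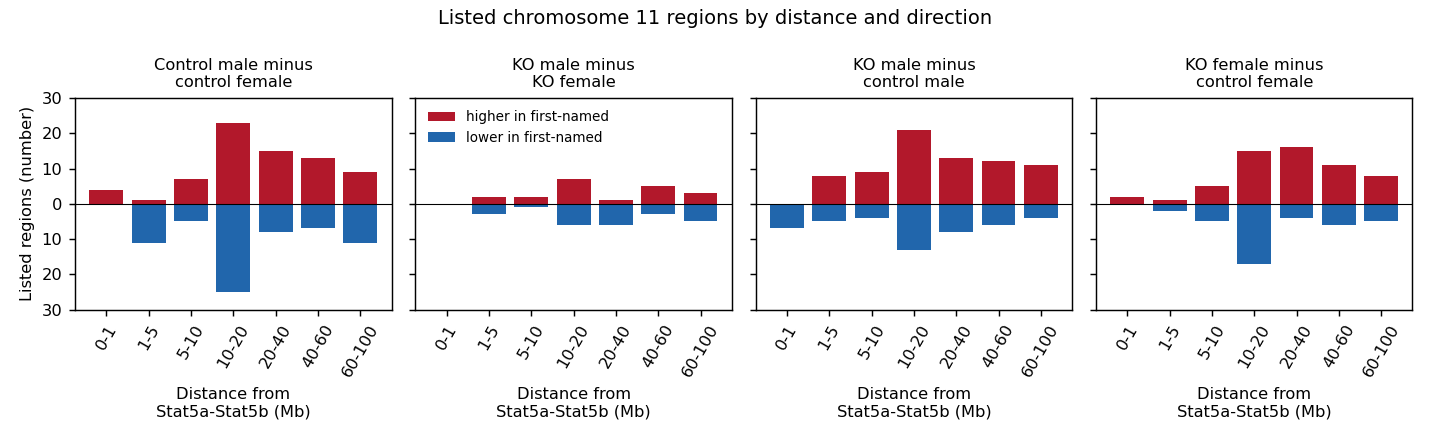
Number of listed regions (y axis) by distance from the Stat5a-Stat5b interval (x axis, Mb, both sides together), 1 panel per comparison; red bars above 0 count regions higher and blue bars below 0 regions lower in the first-named group. Within 1 Mb each of the 3 comparisons with listed regions has a single colour, with 4 higher for control males, 7 lower for KO males against control males and 2 higher for KO females against control females.

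Within 10 Mb of the interval lay 61 regions, of which KO males against control males listed 54.1%, beside 43.6% of the regions beyond it. Control males were higher there at 12 and lower at 16 regions, and KO males were above control males at 17 and below at 16. KO females were above control females at 8 and below at 7, and KO males above KO females at 4 and below at 4. Differences of at least 25 points made up 14.3% of the control sex list within 10 Mb and 30.6% beyond it. For KO males against controls these shares were 21.2% and 30.7%, for KO females against controls 26.7% and 41.5%, and for the KO sex difference 12.5% and 13.9%. The largest difference within 10 Mb was the gain of 52.4 points at 107126701 in KO males, the largest male gain of the chromosome, and the largest KO sex difference, at 97934201, lay there too.

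The share of listed regions differed most between near and far in KO females. Of the 32 regions within 5 Mb, KO females against control females listed 5, while KO males against control males listed 20 (62.5%). Beyond 5 Mb the female comparison listed 39.8% and the male one 43.7% of 231 regions. Within 5 Mb KO males were above control males at 8 regions and below at 12, and beyond 5 Mb they were above at 66 and below at 35.

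**Figure D3:**
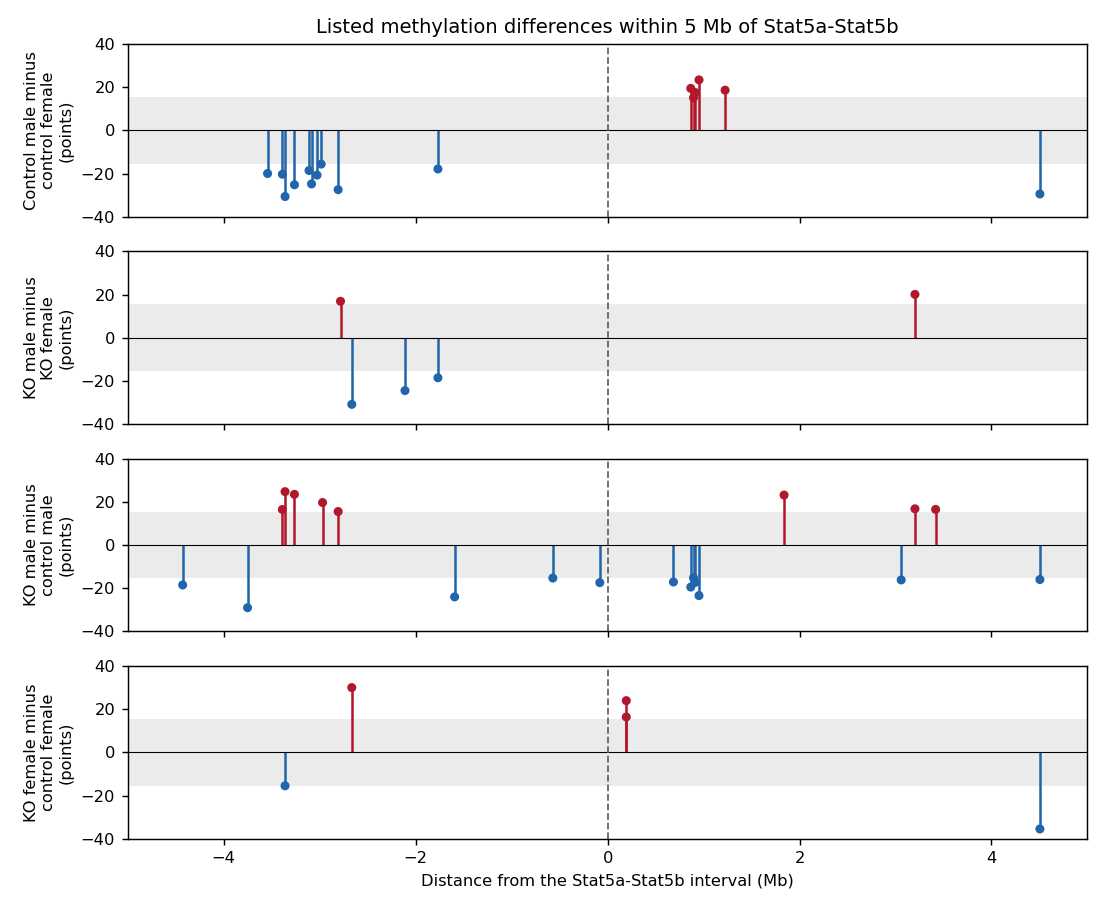
Listed differences in methylation (y axis, percentage points) within 5 Mb of the Stat5a-Stat5b interval (x axis, Mb, dashed line at 0), 1 panel per comparison, red higher and blue lower in the first-named group, grey band under 15 points. A group of 10 stems below 0 before the interval and a group of 5 above 0 after it make up most of the control sex panel.

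Most of the regions nearest to the genes were listed as losses in KO males. The closest, at 100518501 to 100518601, lay 81.4 kb before the interval and was 17.4 points lower in KO males, as -17.4 in the authors' deposited table. On the other side, 2 abutting regions from 100994501 to 100994701, the first of them 194.5 kb from the interval, had higher methylation in KO females, exceeding control females by 16.4 and 23.9 points in the authors' deposited table. Nothing was listed in males there. Further losses in KO males were listed at 99005901 (-24.0 points), 100029401 (-15.3 points) and 101486001 (-17.1 points) in the authors' deposited table, where none of the other 3 comparisons was listed. From 99005901 to 101752301, the stretch that spans the deleted genes, all 8 listed differences between KO and control males were losses, of 15.2 to 24.0 points. Such a run was not particular to this stretch. Another 8 losses in a row lay from 81824701 to 86511701, and runs of 10 and 12 gains were found elsewhere on the chromosome.

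Between 97056601 and 98832001 control females were above control males at all 10 regions listed for that comparison, over a span of 1775.4 kb. It was the longest run of a single sign in the control sex comparison on this chromosome. A run as long or longer was found on 3 other chromosomes, and on 1 of them it was longer. Chromosome 11 also had the most listed regions in this comparison (139), and run length was not set against list length. The authors' deposited table gives -19.9 points at 97056601, -20.3 at 97210901, -30.6 at 97238901, -25.2 at 97336801 and -18.6 at 97488801. They went on in the authors' deposited table with -24.8 points at 97514901, -20.7 at 97572301, -15.6 at 97615201, -27.4 at 97792001 and -17.8 at 98831901. The median of the 10 was -20.5 points.

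In the same stretch KO males were above control males at all 5 regions listed for them. The gains, from the authors' deposited table, were 16.5 points at 97210901, 24.7 at 97238901, 23.5 at 97336801, 19.7 at 97630101 and 15.5 at 97792001. At 4 of these positions the control sex difference was listed too, and both comparisons contain the control males. KO females differed from control females at 2 regions of the stretch, by -15.5 points at 97238901 and by 30.0 points at 97934201 in the authors' deposited table. The KO sexes differed at 4 regions, by 16.9 points at 97816701, -30.8 at 97934201, -24.5 at 98488601 and -18.5 at 98831901 in the authors' deposited table. At the last of these the sex difference had the same sign and nearly the same size in controls and KO mice.

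After the genes the control sex difference had the other sign. At the 5 regions from 101666601 to 102024501, a span of 357.9 kb, control males were above control females by 19.5, 15.2, 17.6, 23.4 and 18.6 points in the authors' deposited table. At the first 4 of them, KO males were below control males by -19.5, -15.2, -17.3 and -23.4 points in the authors' deposited table. Neither comparison with KO females was listed at any of the 5. At 3 of the 4 shared positions both values were the same size to the second decimal, which by subtraction would put KO males and control females at the same level. The control males enter both values. With no comparison with KO females listed, that level could not be checked.

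The other regions within 5 Mb were single ones. KO males were below control males at 96172101 (-18.5 points), 96848201 (-29.0 points) and 103859101 (-16.2 points) in the authors' deposited table. They were above control males at 102639001 (23.1 points), 104002701 (16.8 points) and 104218001 (16.5 points), where the authors' deposited table also gives 20.1 points for KO males over KO females at the middle one. At 105304501 the control sex difference was -29.4 points, with -16.0 for KO males minus control males and -35.5 for KO females minus control females, in the authors' deposited table.

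Changes shared by both sexes were compared next, since the male and female KO comparisons have no library in common. On chromosome 11, 37 regions were listed in both, which is 30.6% of the male KO list and 38.1% of the female one. The direction was the same at 24 of them (64.9%), beside 79.7% of 385 regions in the whole table. KO mice of both sexes were higher at 18 and lower at 6. Of the 13 regions with opposite directions, 10 were lower in KO males and higher in KO females, and 3 were the reverse.

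**Figure D4:**
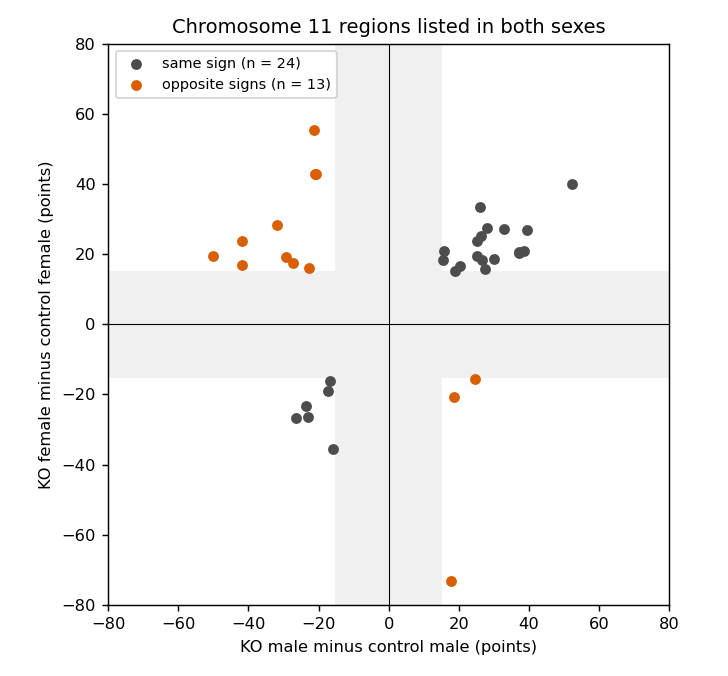
Difference between KO and control females (y axis, points) against that between KO and control males (x axis, points) at the 37 chromosome 11 regions listed in both, grey for the same sign and orange for opposite signs; the grey bands mark the listing threshold of 15 points. The upper left holds 10 orange points and the lower right 3, while 18 grey points lie in the upper right and 6 in the lower left.

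Where both sexes gained, the differences in males had a median of 27.1 points (15.4 to 52.4) and in females of 20.8 points (15.4 to 40.0). After 107126701, the regions with the largest shared change were 19840001 with 27.9 points in males and 27.4 in females, 59881401 with 33.0 and 27.3, and 5950101 with 39.4 and 26.9, in the authors' deposited table. The fifth was a loss at 107831801, with -26.5 points in males and -26.7 in females in the authors' deposited table. At 21 of the 24 regions with the same direction no control sex difference was listed, and none had a KO sex difference. Over all 263 regions, 52.9% were listed for the control sexes and 16.7% for the KO sexes (38.4% and 18% in the whole table). The choice of regions by direction bears on these counts, and whether the 24 differ from those shares was not tested.

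The 13 regions of opposite direction were all listed between control males and control females, with gaps of 26.1 to 74.5 points and a median of 36.0. With control females set at 0, a level of every other group can be computed from the deposited differences: that of control males is the control sex difference, that of KO females is their KO difference, and that of KO males is the sum of the control sex difference and their KO difference. Such sums could be checked at the 10 regions with a listed KO sex difference. At 4 of them the listed and the summed value differed by more than 5 points, so no levels are given for those 4. Choosing regions by opposite changes in the 2 sexes largely fixes the order of the groups by arithmetic, so the levels are a description of single regions.

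**Figure D5:**
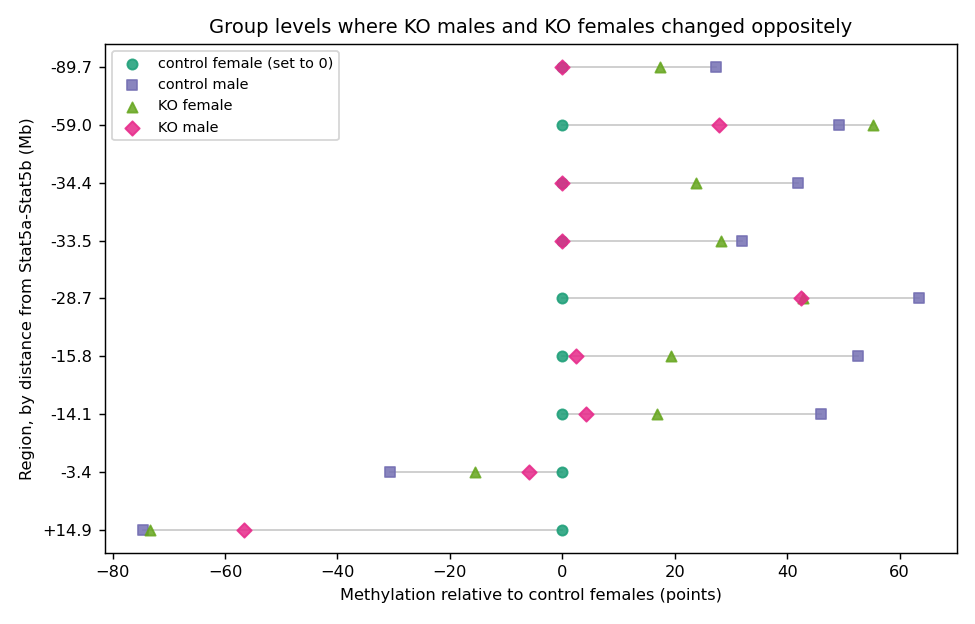
Methylation of control males, KO females and KO males relative to control females (x axis, percentage points, control females set at 0) at 9 of the 13 regions with opposite KO changes (y axis, distance from the Stat5a-Stat5b interval in Mb), computed from the deposited differences; the 4 regions whose listed and summed values differed by more than 5 points are left out. The regions at -28.7, -14.1 and -3.4 Mb had no listed KO sex difference, so their sums could not be checked. KO males coincide with control females at 3 of the 9 (within 0.05 points).

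Of the 13, 10 lay between 41 and 87 Mb, a stretch noticed in these values that holds 90 of the 263 regions. It also holds 20 of the 37 regions listed in both KO comparisons, 10 of them with the same direction in both sexes. In 9 of the 10 with opposite directions, control males were above control females, KO males below control males and KO females above control females. At 66208101 the authors' deposited table gives 41.9, -23.7, -41.9 and 23.7 points in the order of the 4 columns, and at 67050901 it gives 32.0, -28.2, -32.0 and 28.2. KO males and control females were thus at one level at both, with KO females between them and control males. At 84777601 the authors' deposited table gives 52.5, -17.0, -50.2 and 19.4 points, and KO males came within 2.35 points of control females.

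KO females rather than control males were highest at 41553601, with 49.2, -27.4, -21.3 and 55.3 points in the authors' deposited table. At 68400201 the authors' deposited table gives 33.2, -20.5, -21.2 and 42.8 points, and whether KO females or control males were higher there depends on which differences are added. The values at 74681101 were 36.0, -22.8, -29.3 and 19.2 points, and at 83266001 they were 28.0, -28.4, -22.9 and 16.0, in the authors' deposited table. At 71858601 and 86511601 no KO sex difference was listed. There the other 3 values were 63.4, -20.9 and 42.8 points, and 46.0, -41.8 and 16.9 points in the authors' deposited table. The region at 42833701 went the other way, with -26.1, 29.4, 18.6 and -20.6 points in the authors' deposited table.

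The remaining 3 regions of opposite direction were scattered. At 10949101 the authors' deposited table gives 27.3, -17.5, -27.3 and 17.5 points, an arrangement like that at 66208101. At 97238901, in the stretch before Stat5, the 3 listed values were -30.6 for the control sexes, 24.7 for males and -15.5 for females in the authors' deposited table. At 115664901 control females were far above all other groups, by 74.5 points over control males and 73.3 over KO females in the authors' deposited table, and by 56.7 over KO males by subtraction.

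The sex comparisons of controls and KO mice, which also have no library in common, were both listed at 25 regions, 18% of the control list and 56.8% of the KO list. The sign was the same at 9 of them (36%), beside 47.5% of 183 regions in the whole table. Control males were above and KO males below the females at 10, and the reverse held at 6. Within 10 Mb of Stat5, 3 regions were listed in both, all with the same sign, and beyond it the sign was the same at 6 of 22. This count and that of the opposite KO changes share regions and are not separate results.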

How the data were processed

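RRBS libraries of 23 livers were compared in 4 groups of 5 or 6 mice. The authors deposited a single table, in which each score is a difference in percent methylation between 2 groups over a 100 bp region, listed at over 15 points and a q-value under 0.05, per the file headers and legend. Non-knockout groups are written WT there and were taken as the floxed controls. Per the submitters' processing notes, reads were handled with methylKit, Bismark and Trim Galore 0.4.3, on build mm9. The labels state no coverage minimum, handling of replicates or depth. A score of 0 means not listed, not measured as equal.

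From these scores, counts, shares, medians, distances to the Stat5 interval and runs of a single sign were computed with Python 3.11.15 and pandas 2.3.3, and the counting code was tested on made-up data. No test was made, since no values per animal were at hand. Regions were named by a rule: the 5 largest in each direction per comparison, all within 5 Mb of Stat5, all with opposite KO changes, the 5 largest shared changes, all listed in 4 comparisons, and clusters of 3 or more. The members, rules and stretches were chosen with earlier results of these data known. Alternatives were a minimum of 25 points, merging of neighbours within 10 kb, and windows of 5 and 20 Mb.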

Additional observations from a re-analysis of the deposited data

How the results depend on the processing

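Each of 17 shares was recomputed under up to 5 alternatives, 61 values in all, and 51 stayed inside the exact 95% interval of the share as reported, an interval that covers counting of regions only. Merging neighbours within 10 kb left all 17 inside it, as did windows of 5 and 20 Mb for the 4 shares near Stat5. At a minimum of 25 points, the part of the control sex list within 10 Mb of Stat5 fell to 4 of 38 (10.53%) in place of 20.1%, and none of the 4 regions left there was higher in control males (0% in place of 42.9%). KO males were above KO females at 0% of the single region left near Stat5 (50% as reported) and above control males at 71.4% of 7 (51.5% as reported). Chromosome 11 then held 11.3% of the female KO list in place of 8.88%, and 87.5% of 8 regions had the same direction in both sexes in place of 64.9%.

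Other alternatives were chosen after seeing the data. Without the 5 Mb stretch that held most listed regions (38, the one that ends at 120 Mb), chromosome 11 held 7.77% of the control sex list and 7.10% of the female KO list. Without 97056601 to 98832001, control males were higher at 66.7% of 18 regions near Stat5. That stretch holds lower regions only, so leaving it out could only raise the share. Without 41 to 87 Mb, 82.4% of 17 regions had the same direction in both sexes. That stretch was noticed for its opposite directions, so this rise came with the choice. Beyond the listing threshold, the smallest listed sizes were 15.01 to 15.8 points. Leaving out single mice could not be done. No paired analysis was possible because the table holds no values per animal.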

Other observations

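Abutting regions mostly shared their sign. Over all chromosomes, 478 pairs of abutting regions were both listed in the same comparison, counted once per comparison, and 8 of them had opposite signs. Of the 30 such pairs on chromosome 11, 5 had opposite signs, at 4 places, and whether this share differs from that of other chromosomes was not tested. At 115490001 to 115490201 the control sex difference went from -21.0 to 18.7 points and the female KO difference from -26.6 to 29.7 points in the authors' deposited table. The female KO difference also went from -17.0 to 19.4 points at 116377001 to 116377201, and from 29.3 to -27.2 points at 117067201 to 117067401, in the authors' deposited table. At 74681101 to 74681301 the male KO difference went from -29.3 to 15.8 points in the authors' deposited table.

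Of the 263 regions 70 lay in 30 clusters of neighbours within 10 kb, and 6 clusters held 3 or more. Beside the 3 abutting regions that end at 107126801, 2 of these were gains in KO males throughout. In the authors' deposited table the gains were 28.8, 17.2 and 16.0 points from 114236801 to 114237101, and 21.6, 21.5, 21.2 and 25.2 points from 120474201 to 120480201. At the last region of the second cluster KO females were higher as well, by 23.7 points in the authors' deposited table. The other 3 clusters were mixed. From 114497001 to 114509801 the authors' deposited table gives losses of -19.6, -19.4 and -30.4 points in KO females, beside control sex differences of 16.1 and -32.0 points. From 115479901 to 115490201 it gives losses of -16.0 and -30.3 points in KO males followed by the pair of opposite sign at 115490001. From 117066901 to 117067401 the authors' deposited table gives control sex differences of 20.8 and 24.3 points ahead of the pair at 117067201.

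At the 10 regions listed in all 4 comparisons adding the male KO difference to the control sex difference and subtracting the female KO difference should return the KO sex difference if each group had a single level. It did so within 0.05 points at 6, and was off by more than 5 points at the other 4, by 17.6 at most, at 83266001 to 83266101. The same held within 0.05 points at 44 of 71 regions in the whole table. The group levels at those 4 regions, at 42833701, 68400201, 74681101 and 83266001, would depend on which differences are added.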
